A study of Mus musculus with 6 samples.

Results

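The megakaryocyte and platelet genes Pf4, Ppbp, Itga2b, Gp1ba, Gp1bb, Gp9, Treml1 and Gp6 were followed in RNA of mouse marrow cells cultured toward the myeloid lineage. They were taken by symbol from the deposited gene table, which held all 8 among its 17382 genes, and all 8 passed the filter on low values used for testing. The study set 3 cultures labelled knockout, from C57BL/6 mice carrying PD-L1 flox/flox and lysozyme-Cre, against 3 labelled wild type, from littermates carrying PD-L1 flox/flox alone, so that the floxed alleles were shared by every animal. All mice were 2 months old, and all cultures received M-CSF, on which macrophages depend for growth, at 40 ng/mL for 3 days. The lysozyme gene's control region drives Cre in monocytes, macrophages and neutrophils. Levels are in TPM, a length-corrected share of each library out of 1000000, so they can be compared between libraries. Comparison between genes also rests on the gene lengths used, and the annotation behind these is not given in the sources used here.

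Megakaryocytes are the large marrow cells that shed platelets. Platelets carry chemokines in their alpha granules and hold to a damaged vessel wall through surface glycoproteins that bind von Willebrand factor, collagen and fibrinogen. Most of these genes are used in few other cells. Pf4 is different, because macrophages and their precursors also transcribe it, and the 7 other genes are here called lineage-restricted to set them apart from it. Thrombopoietin, not M-CSF, is the main growth factor of megakaryocytes.

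Libraries held between 52.4 and 77.3 times 1000000 recovered reads. Of 12 macrophage markers all were measured and none was at 0, and they summed to 8912 to 11523 TPM in knockout-labelled cultures, against 8958 to 11661 TPM in wild type. Cd274, which encodes PD-L1, had 19.3, 19.2 and 29.2 TPM in knockout-labelled cultures, against 17.9, 15.5 and 23.7 TPM in wild type, so it was not lower under the label knockout (log2 difference 0.24 ± 0.22, SE, limma adjusted p = 1). The value covers the whole gene, and the floxed exons are not named in the sources used here. Directions below are therefore those of the libraries by label. The leading principal component of the tested genes, with 44.3% of their variance, did not follow the labels: knockout 1 and 2 and wild type 3 lay on its negative side, and knockout 3 and wild type 1 and 2 on its positive side. Of 13722 genes tested for genotype, 0% passed in either direction (limma on log2(TPM + 0.1), Benjamini-Hochberg adjusted p under 0.05), and 171 higher (1.25%) and 128 lower genes passed an unadjusted 0.05. A limma-voom fit of recovered reads likewise called 0 genes each way, and there 159 higher and 151 lower genes passed an unadjusted 0.05. No member was called, and each had an adjusted p of 1 in the limma fit on log2(TPM + 0.1) and of 1.0 in the authors' deposited table.

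The 8 genes spanned a wide range of levels. Pf4 averaged 899 TPM over the 6 libraries and stood at place 123 of the 17382 genes by mean level, and Ppbp averaged 92.2 TPM, at place 2183. Itga2b, Treml1, Gp1ba and Gp9 averaged 16.1, 10.4, 5.66 and 5.58 TPM, and Gp1bb and Gp6 each averaged 2.33 TPM. In this order each gene lay above the next in 6 of 6 libraries, except that Gp1ba lay above Gp9 in 5 of 6 and Gp1bb above Gp6 in 3 of 6, so these pairs were not separated beyond their spread. Pf4 was thus 9.75 times as abundant per length as Ppbp, and Ppbp 5.74 times as abundant as Itga2b.

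**Figure D1:**
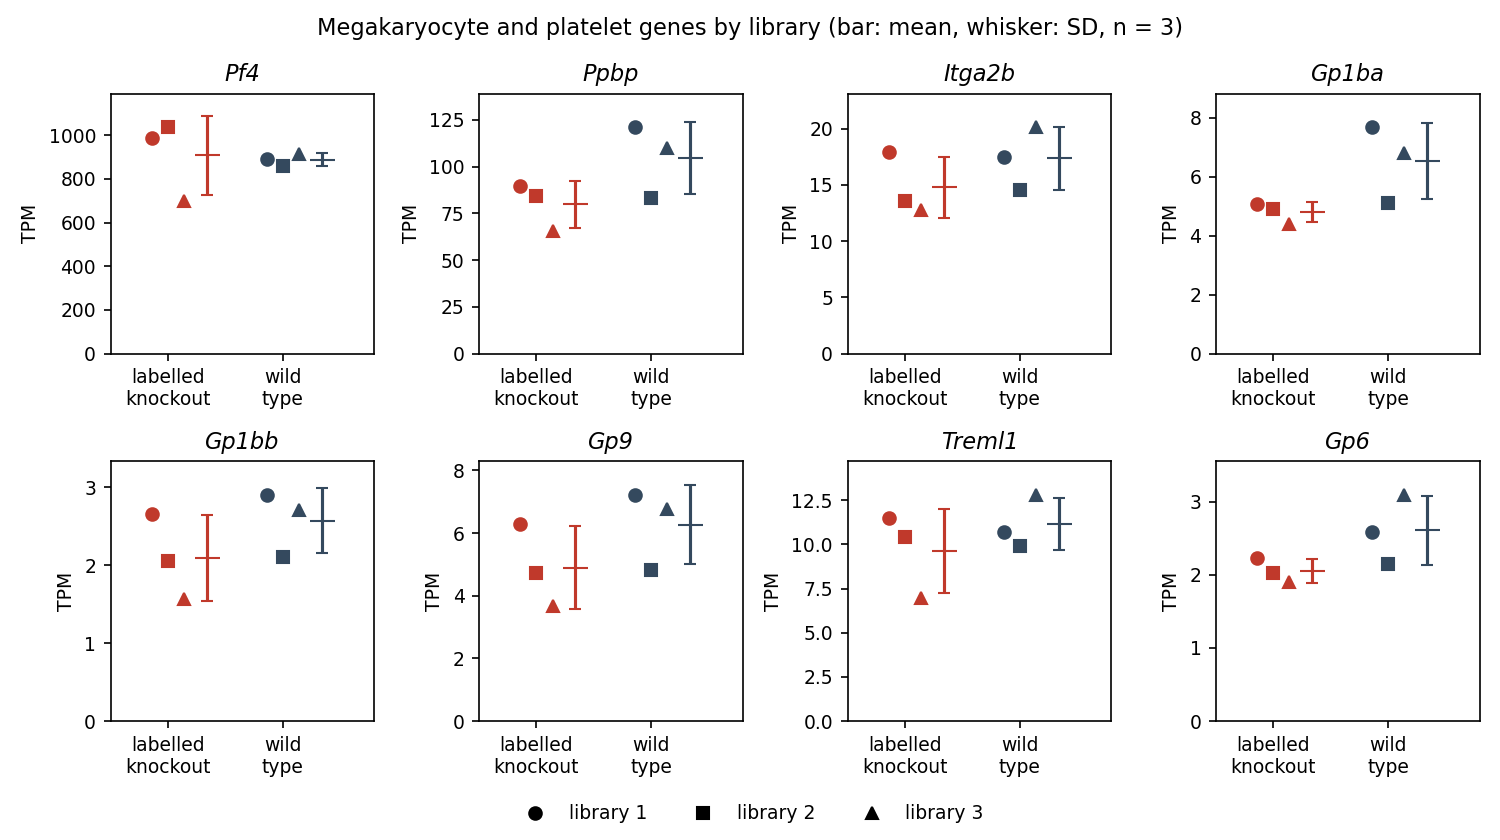
Level of each gene in TPM (vertical axis, from 0, a scale for each gene) in the 3 libraries labelled knockout (red, left) and the 3 wild-type libraries (dark, right), with the marker shape giving the library number, the bar the mean and the whisker the SD. The groups overlap in every panel but that of Gp1ba, and knockout 3 (triangle) is the lowest red point for all 8 genes.

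The chemokine genes Pf4 and Ppbp lie side by side, and their log2 differences (labelled knockout minus wild type) were 0.01 and -0.38, neither past the test. Pf4 encodes platelet factor 4, which binds heparin, and Ppbp encodes pro-platelet basic protein, which is cut to a chemokine that attracts neutrophils. On chromosome 5 of mm10, on the plus strand, Ppbp runs from 90768518 to 90770060 and Pf4 from 90772435 to 90773383, with 2374 bases between them. Their RefSeq promoter windows (GRCm38.p6, the same coordinates as mm10), chr5:90772185-90772484 for Pf4 and chr5:90768268-90768567 for Ppbp, are shown because Pf4, which macrophages share, and Ppbp are neighbours with unlike values over the libraries. Both windows are on the plus strand and run from 250 bases before to 50 bases after the annotated start. Capitals mark matches on either strand to AGATAA or AGATAG or TGATAA or TGATAG, the letters GATA factors recognise, and to CCGGAA or CAGGAA, which ETS factors recognise.
Pf4: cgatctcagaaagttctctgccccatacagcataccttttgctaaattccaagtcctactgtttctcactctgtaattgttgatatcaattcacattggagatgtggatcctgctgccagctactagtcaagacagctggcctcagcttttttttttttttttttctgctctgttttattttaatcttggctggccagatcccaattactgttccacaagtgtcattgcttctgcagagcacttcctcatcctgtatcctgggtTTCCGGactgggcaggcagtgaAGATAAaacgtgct
Ppbp: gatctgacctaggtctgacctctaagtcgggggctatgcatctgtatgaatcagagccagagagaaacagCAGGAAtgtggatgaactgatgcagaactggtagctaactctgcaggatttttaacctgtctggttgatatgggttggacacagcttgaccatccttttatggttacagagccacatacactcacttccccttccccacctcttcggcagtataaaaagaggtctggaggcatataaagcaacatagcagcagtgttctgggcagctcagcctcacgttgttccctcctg
The Pf4 window held 1 GATA and 1 ETS match, both after the start, and the Ppbp window 1 ETS match. Over 32851 promoter windows of the same length 29.8% held a GATA match and 41.4% an ETS match, against 4 of 8 and 5 of 8 members, and no pair of matches in a member overlapped. A match is a string of letters and not a shown binding site.

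Pf4 had 988, 1036 and 701 TPM in knockout-labelled cultures, against 892, 858 and 916 TPM in wild type. Knockout 1 and 2 lay above every wild-type library and knockout 3 below every one, so the groups overlapped completely and the means of 908 ± 181 TPM in knockout-labelled cultures and 889 ± 29.5 TPM in wild type (n = 3 each, SD) were close. The log2 difference of Pf4 was 0.01 ± 0.16 (SE), with a 95% interval from -0.37 to 0.39. Without knockout 3 it was 0.19, and without knockout 1, knockout 2 or wild type 2 it was -0.06, -0.09 and -0.01. Pf4 rested on 10003 to 17207 reads per library, a counting error of 0.762% to 1%, and its spread of 20.0% (CV) among the libraries labelled knockout was far larger than that.

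Ppbp had 89.7, 84.3 and 65.4 TPM in knockout-labelled cultures, against 121, 83.1 and 109.8 TPM in wild type. Wild type 1 and 3 lay above every library labelled knockout, but wild type 2 lay among them. The log2 difference of Ppbp was -0.38 ± 0.18 (SE), with a 95% interval from -0.81 to 0.04 and an unadjusted p of 0.0694 in limma; the authors' deposited table gives an unadjusted p-value of 0.0434. Without wild type 2 the difference was -0.54, and without knockout 3 it was -0.25. Wild-type Pf4 was level, with a CV of 3.32%, while wild-type Ppbp varied by 18.5%.

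Itga2b encodes the alpha IIb chain of the platelet fibrinogen receptor, which pairs with the beta 3 chain from Itgb3. The gene occupies chromosome 11, 102453297 to 102469883, minus strand. Itga2b had 17.9, 13.6 and 12.8 TPM in knockout-labelled cultures, against 17.5, 14.5 and 20.1 TPM in wild type. Knockout 1 lay within the wild-type range, and knockout 2 and 3 below it. The log2 difference of Itga2b was -0.24 ± 0.18 (SE). It was -0.38 without knockout 1, -0.36 without wild type 2, -0.14 without knockout 3 and -0.12 without wild type 3, and without knockout 3 and wild type 3 together it was -0.03. Itgb3, which macrophages and osteoclasts also use, had 17.2 ± 2.43 TPM in knockout-labelled cultures, against 20.3 ± 3.79 TPM in wild type (SD, n = 3 each), and its log2 difference of -0.23 ± 0.17 was close to that of its partner.

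Gp1ba, Gp1bb and Gp9 encode the chains of the glycoprotein Ib-IX complex, the platelet receptor of von Willebrand factor. Gp1ba carries the binding site, Gp1bb is joined to it by a disulfide bond, and Gp9 is needed for the complex to reach the surface. Gp1ba was the one member whose groups did not overlap, where 2.27% of tested genes lay lower without overlap. Its promoter window, chr11:70638872-70639171 on the plus strand, is shown for that reason, with capitals as above. It held 3 GATA matches and 1 ETS match, all of them before the start.
Gp1ba: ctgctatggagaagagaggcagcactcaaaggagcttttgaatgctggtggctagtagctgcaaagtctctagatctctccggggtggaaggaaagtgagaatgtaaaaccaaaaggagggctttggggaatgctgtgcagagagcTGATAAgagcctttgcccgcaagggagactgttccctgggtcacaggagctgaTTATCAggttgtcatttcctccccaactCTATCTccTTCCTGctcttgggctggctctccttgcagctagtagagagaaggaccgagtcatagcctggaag
Gp1ba itself runs from 70639122 to 70642055 on chromosome 11. Gp1ba had 5.09, 4.91 and 4.41 TPM in knockout-labelled cultures, against 7.67, 5.12 and 6.80 TPM in wild type. The gap was narrow, with knockout 1 just under wild type 2. The counting error of Gp1ba was 4.34% to 5.85% of a library's 292 to 531 reads, which is larger than the step between these neighbouring libraries. The log2 difference of Gp1ba was -0.42 ± 0.17 (95% interval -0.84 to -0.0014), with an unadjusted limma p of 0.0494 and an adjusted p of 1; 0.933% of tested genes were lower at an unadjusted p under 0.05. limma-voom on the recovered reads and the authors' deposited table, with a p-value of 0.0696, did not pass an unadjusted 0.05 for Gp1ba. Without wild type 2 the log2 difference was -0.58 with an unadjusted limma p of 0.0093, and with any other single library left out that p was 0.0747 to 0.156.

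Gp9, on chromosome 6 from 87778136 to 87779762, had 6.29, 4.72 and 3.66 TPM in knockout-labelled cultures, against 7.22, 4.84 and 6.76 TPM in wild type. Gp1bb, on chromosome 16 from 18620319 to 18622403, had 2.66, 2.05 and 1.56 TPM in knockout-labelled cultures, against 2.90, 2.10 and 2.71 TPM in wild type. For both genes knockout 1 lay above wild type 2, so the groups overlapped, and the log2 differences were -0.37 ± 0.24 for Gp9 and -0.31 ± 0.23 for Gp1bb. With single libraries left out, the difference of Gp9 ran from -0.56 (without knockout 1) to -0.18 (without knockout 3), and that of Gp1bb from -0.49 to -0.12 with the same libraries left out. The table's row for Gp1bb shares 593 of its 2085 bases, from 18621811 to 18622403, with Sept5 on the same strand, and how reads of the shared stretch were counted is not given in the sources used here. Sept5 itself had 7.58 ± 0.724 TPM in knockout-labelled cultures, against 8.34 ± 1.08 TPM in wild type (SD, n = 3 each).

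Gp1bb and Gp9 varied in near proportion. Gp1bb stood at 0.422, 0.433 and 0.427 of the Gp9 level in knockout-labelled cultures, against 0.402, 0.434 and 0.401 in wild type. The ratio of their reads varied by 3.54% (CV over 6 libraries), below the 11.2% to 16.3% that counting error alone gives for the ratio in a library. Gp1ba over Gp9 was looser, at 0.809, 1.04 and 1.21 in knockout-labelled cultures, against 1.06, 1.06 and 1.01 in wild type. The counting error in a library was 4.34% to 5.85% for Gp1ba and 7.98% to 11.8% for Gp9. Whether this ratio varied beyond counting error was not tested. Gp5, which encodes glycoprotein V, the chain that associates with this complex, had 3.64 ± 0.65 TPM in knockout-labelled cultures, against 4.42 ± 0.82 TPM in wild type (SD, n = 3 each), with a log2 difference of -0.27 ± 0.20.

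Treml1 encodes TLT-1, a receptor of the TREM family kept in alpha granules until platelets are activated, and Gp6 encodes the collagen receptor glycoprotein VI. Treml1, on chromosome 17 from 48359916 to 48367176, had 11.5, 10.4 and 6.99 TPM in knockout-labelled cultures, against 10.7, 9.93 and 12.8 TPM in wild type. Its groups were interleaved but for knockout 3 below and wild type 3 above all others, and its log2 difference of -0.23 ± 0.21 was -0.02 without knockout 3, -0.12 without wild type 3 and -0.37 without knockout 1. Gp6, on chromosome 7 from 4368713 to 4397744, had 2.23, 2.03 and 1.90 TPM in knockout-labelled cultures, against 2.58, 2.15 and 3.09 TPM in wild type. Knockout 1 lay just above wild type 2, and the log2 difference of Gp6 was -0.32 ± 0.18, or -0.19 without wild type 3, from 53 to 102 reads per library and with a counting error of 9.90% to 13.7%. Fcer1g, the adaptor through which Gp6 signals and which macrophages hold in large amounts, had 1833 ± 145 TPM in knockout-labelled cultures, against 1899 ± 252 TPM in wild type (SD, n = 3 each). Of 9 genes of the signalling chain below collagen receptors, 4 had a negative log2 difference, their median was 0.01 and none passed.

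Across the set, 7 of 8 members had a negative log2 difference, where 48.9% of tested genes did, and their median was -0.31 against 0.003 over all tested genes. The 7 lineage-restricted genes varied together over the 6 libraries, so they are not separate draws. Whether a single cell type carried them was not tested. In bulk RNA fewer cells of a type and less RNA per cell cannot be told apart. The variation followed single libraries. Knockout 3 was the lowest of the 6 libraries for all 8 members, as it was for 24.2% of tested genes. The highest was wild type 1 for Ppbp, Gp1ba, Gp1bb and Gp9 and wild type 3 for Itga2b, Treml1 and Gp6, libraries that held the highest value of 18.4% and 16.9% of tested genes. Wild type 2 was the lowest wild-type library for all 8. Pearson correlations among the 7 lineage-restricted genes over the 6 libraries, on log2(TPM + 0.1), ran from 0.62 (Gp1ba with Treml1) to 1.0 (Gp1bb with Gp9), and those of Pf4 with them from 0.25 (Gp1ba) to 0.81 (Treml1). They describe 6 libraries that share the division along the first component, and carry no test.

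**Figure D2:**
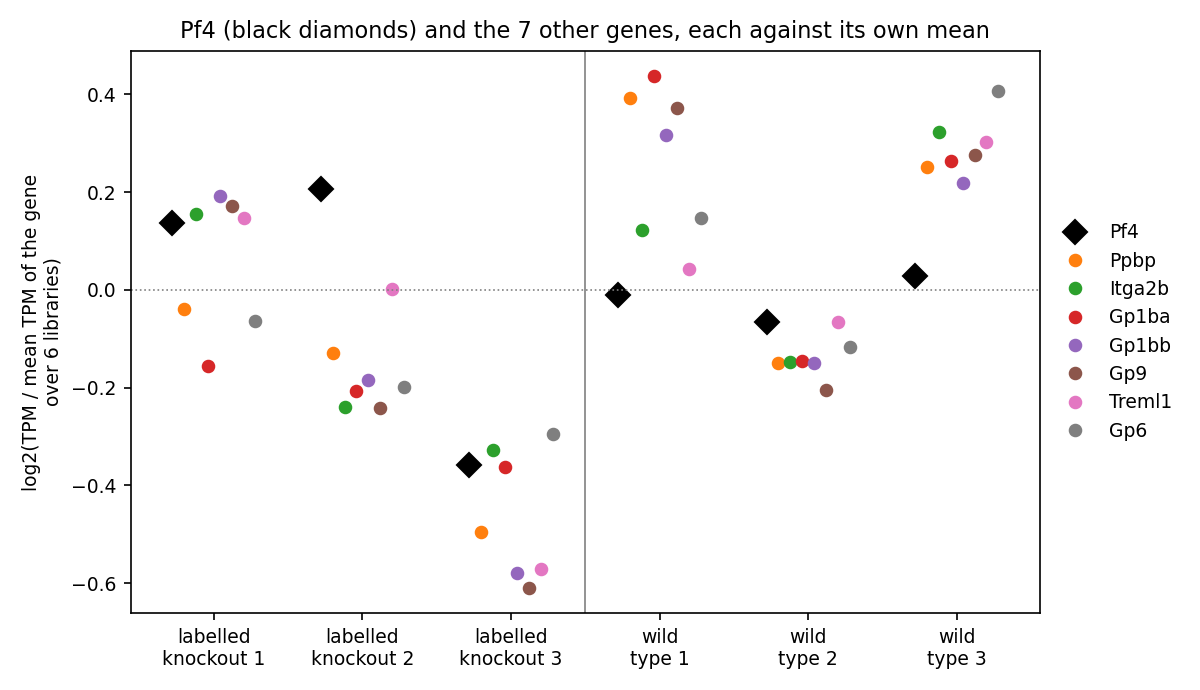
log2 of each gene's TPM over its own mean in the 6 libraries (vertical axis), by library (horizontal axis, those labelled knockout left of the line), for Pf4 (black diamonds) and the 7 lineage-restricted genes (coloured circles). All 8 are lowest in knockout 3, the coloured circles lie above Pf4 in wild type 1 and 3, and Pf4 lies above them in knockout 2.

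Within the sides of the first component, read from the values and therefore no batch of the labels, all 7 lineage-restricted genes were lower in each knockout-labelled culture than in any wild-type one of the same side, as were 12.6% of tested genes. On the negative side their log2 differences ran from -0.21 (Gp1bb) to -0.52 (Gp6), and on the positive side from -0.30 (Gp6) to -0.68 (Gp9). The negative side holds a single wild-type library and the positive side a single one labelled knockout, and the sides come from the same values, so these differences are descriptions without a replicate check. Pf4 had 0.14 on the negative and -0.32 on the positive side. With the side as a term in the limma fit, the log2 differences were -0.39 ± 0.11 for Treml1, -0.47 ± 0.15 for Ppbp, -0.41 ± 0.14 for Gp6, -0.47 ± 0.17 for Gp1ba and -0.34 ± 0.13 for Itga2b. These 5 members were lower at an unadjusted p under 0.05, as were 3.21% of tested genes, while 4.38% were higher and no member was. None passed over all genes, with adjusted p-values of 0.566 to 0.873 over the 8 members in that limma fit.

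Set against the lineage-restricted genes, Pf4 stood higher in knockout-labelled cultures. Its log2 level minus the mean log2 level of the 7 others was 6.82, 7.11 and 6.83 in those and 6.47, 6.81 and 6.48 in wild type, a difference of 0.33 between means where libraries of a group varied by a pooled SD of 0.18. The groups did not overlap, but knockout 1 and wild type 2 lay next to each other at 6.82 and 6.81. The counting error of this score was not computed, so a step this small is not a resolved separation. How often other genes would give such a score without overlap was not computed. Pf4 itself differed by 0.01, so the difference came mostly from the 7 others. Their mean log2 level was 2.89 ± 0.26 in knockout-labelled cultures and 3.21 ± 0.24 in wild type (SD, n = 3 each), with overlapping groups. An exact permutation test of 3 libraries against 3 cannot go below 0.1, and the difference of 0.33 is given as a description without a p, since the genes were chosen with results known. With single libraries left out it ranged from 0.24 to 0.45.

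The ratio to Ppbp, its neighbour, was the single one of 7 ratios to Pf4 whose groups did not overlap. Pf4 over Ppbp was 11, 12.3 and 10.7 in knockout-labelled cultures, against 7.39, 10.3 and 8.35 in wild type, with means of 11.3 ± 0.837 in knockout-labelled cultures and 8.69 ± 1.5 in wild type (SD, n = 3 each). Of 13721 other tested genes, 1.63% had a ratio of Pf4 to the gene that was higher in all 3 knockout-labelled cultures than in any wild-type one. Pf4 over Itga2b was 55.3, 76.3 and 54.7 in knockout-labelled cultures, against 51.1, 59.1 and 45.6 in wild type, and Pf4 over Gp1ba was 194, 211 and 159 in knockout-labelled cultures, against 116, 167 and 135 in wild type. In both of these wild type 2 lay among the libraries labelled knockout. The ratios to Treml1, Gp9, Gp1bb and Gp6 overlapped as well, with means of 95.3, 189, 442 and 442 in knockout-labelled cultures, against 80.6, 145, 351 and 347 in wild type.

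**Figure D3:**
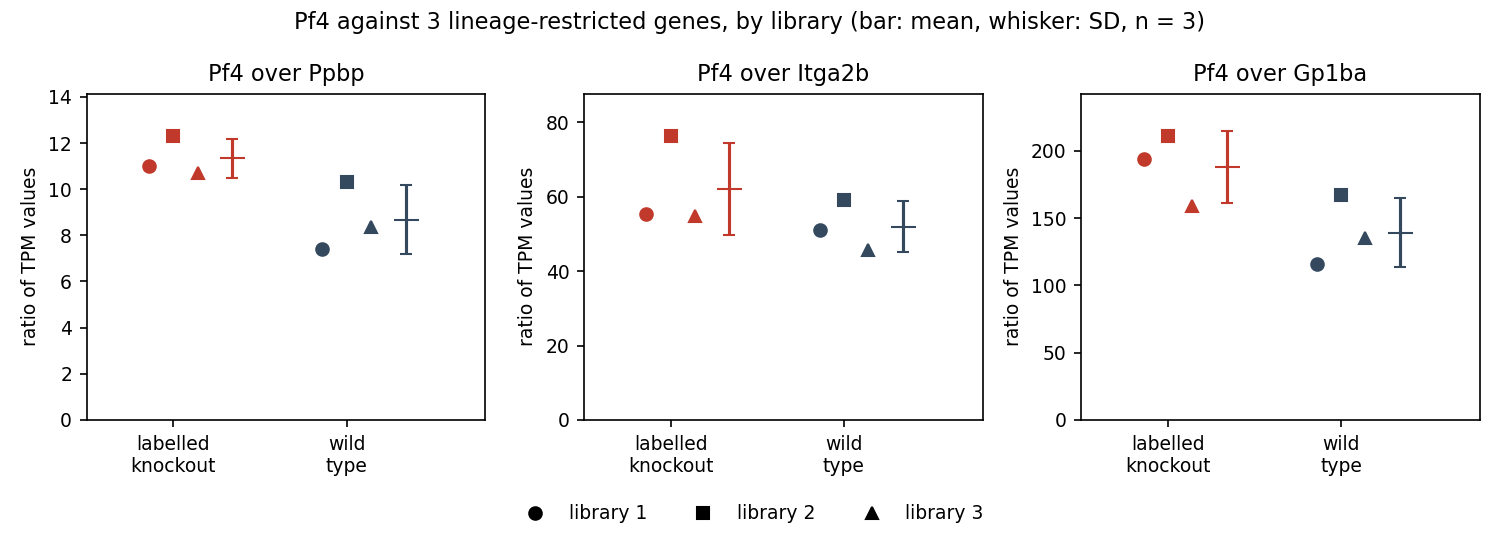
Ratio of the TPM of Pf4 to that of Ppbp, Itga2b and Gp1ba (vertical axes, from 0) in knockout-labelled cultures (red, left) and wild type (dark, right), with the library number as marker shape, the mean as a bar and the SD as a whisker. The groups are apart only for Ppbp, with 10.7 to 12.3 in knockout-labelled cultures against 7.39 to 10.3 in wild type.

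Other platelet receptor genes mostly had lower means in knockout-labelled cultures, and 0 of 19 tested passed in either direction. Of the 19, 17 had a negative log2 difference, with a median of -0.34 against 0.003 over all tested genes, and 4 had groups that lay lower without overlap, again beside 2.27% of tested genes. F2rl2, a thrombin receptor of mouse platelets, had 4.53 ± 0.335 TPM in knockout-labelled cultures, against 6.30 ± 0.981 TPM in wild type (log2 difference -0.46 ± 0.15). Clec1b, the podoplanin receptor CLEC-2, had 6.52 ± 1.12 TPM in cultures labelled knockout, against 8.97 ± 1.13 TPM in wild type (-0.46 ± 0.16). Itga2, the alpha 2 chain of the collagen-binding integrin, had 0.593 ± 0.0982 TPM in knockout-labelled cultures, against 0.914 ± 0.134 TPM in wild type (-0.55 ± 0.19; SD, n = 3 each for these genes). Cd226, an adhesion receptor of lymphocytes and platelets, was the other gene without overlap (-0.34 ± 0.17). The most abundant genes of the list, Cd9 and Ptprj, which macrophages also express, had log2 differences of -0.03 ± 0.11 and 0.11 ± 0.18.

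Genes for granule contents, cytoskeleton and platelet enzymes were divided, with 10 of 19 tested negative, a median of -0.17 and 0 that passed. Alox12, the platelet 12-lipoxygenase, had 3.19 ± 0.112 TPM in knockout-labelled cultures, against 4.39 ± 0.716 TPM in wild type (-0.44 ± 0.16). Sparc, an alpha-granule and stromal matrix protein, had 0.794 ± 0.121 TPM in knockout-labelled cultures, against 1.84 ± 0.813 TPM in wild type (-1.02 ± 0.35; SD, n = 3 each for both). These and Slc35d3, a transporter needed for dense granules (-0.43 ± 0.19), lay lower without overlap, beside 2.27% of tested genes. For Sparc the gap was narrow, with 0.934 TPM in knockout 1 and 0.948 TPM in wild type 1, from 46 to 192 reads per library. Gng11, a G protein gamma chain, lay higher without overlap, at 14.2 ± 1.7 TPM in knockout-labelled cultures against 10.3 ± 1.36 TPM in wild type (0.46 ± 0.14), where 2.84% of tested genes lay higher in that way. The most abundant genes, Fermt3, the kindlin of blood cells, and F13a1, the A chain of coagulation factor XIII, which macrophages also make, differed by 0.03 ± 0.11 and 0.03 ± 0.27.

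**Figure D4:**
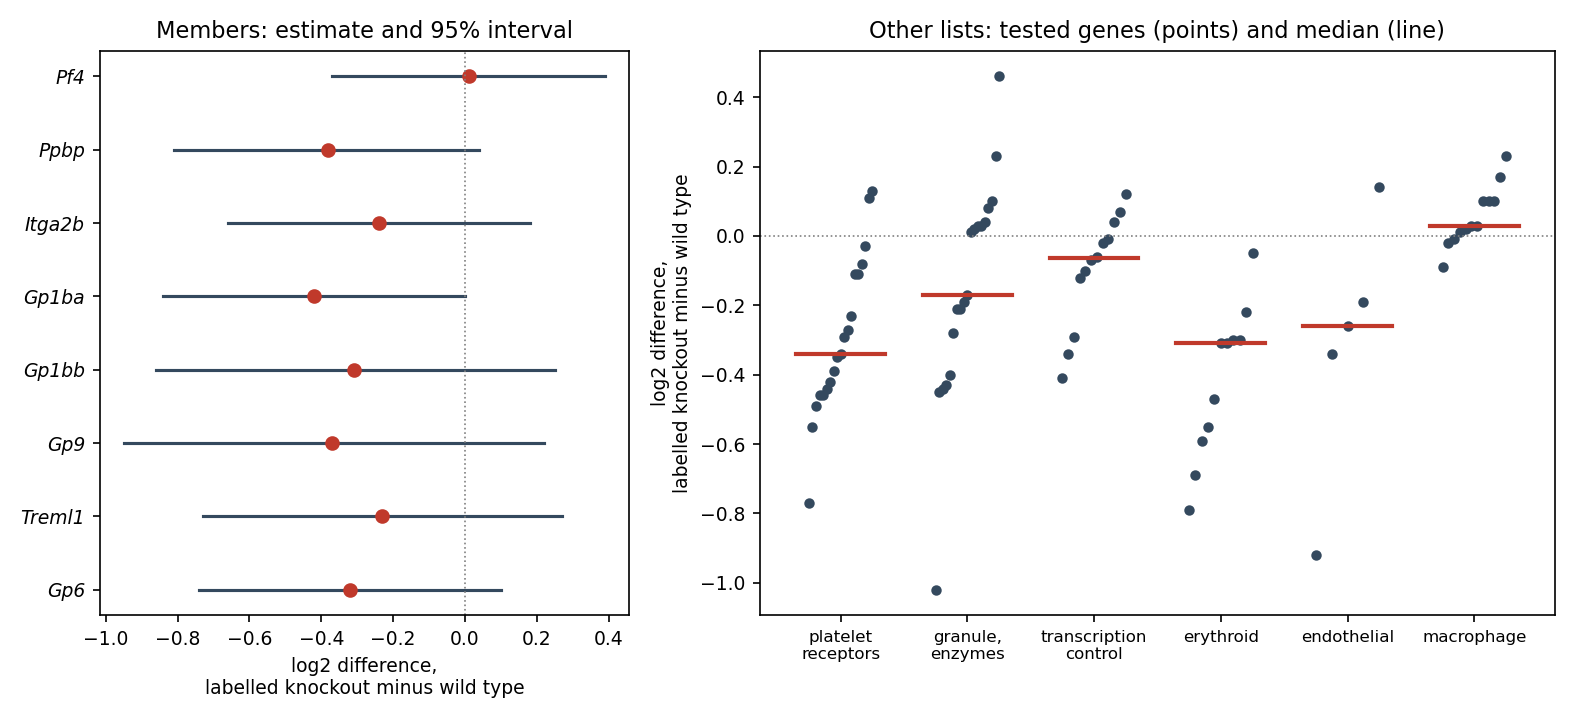
Left, the log2 difference (labelled knockout minus wild type) of each member with its 95% interval. Right, the log2 differences of the tested genes of 6 other lists (points) with the list median (line), from -0.34 for platelet receptors to 0.03 for macrophage genes. The interval of Gp1ba ends just below 0, those of the 7 others hold 0, and 7 of 8 estimates are negative.

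Among regulators of the lineage, 9 of 12 had a negative log2 difference, with a median of -0.07 and 0 that passed. Gata1, the GATA factor that megakaryocytes share with erythroid cells and mast cells, had 1.71 ± 0.484 TPM in knockout-labelled cultures, against 2.17 ± 0.451 TPM in wild type (-0.34 ± 0.26). Its cofactor gene Zfpm1 had 3.29 ± 0.33 TPM in knockout-labelled cultures, against 4.08 ± 0.673 TPM in wild type (-0.29 ± 0.17). Gfi1b, a repressor in both the megakaryocyte and the erythroid lineage, had 0.840 ± 0.222 TPM in knockout-labelled cultures, against 1.17 ± 0.419 TPM in wild type (-0.41 ± 0.29; SD, n = 3 each for these genes). Fli1 and Lyl1, the most abundant, are used across blood cells and differed by 0.04 ± 0.09 and 0.12 ± 0.18. In the chemokine cluster around Pf4, 1 of 4 measured genes was negative, with a median of 0.17, and none passed. Cxcl5, a neutrophil chemokine, had 0.752 ± 0.25 TPM in knockout-labelled cultures and 1.10 ± 0.404 TPM in wild type, and Cxcl2, another, had 18.6 ± 7.39 TPM in knockout-labelled cultures against 13.5 ± 5.63 TPM in wild type (SD, n = 3 each).

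Markers of other cells that marrow holds were measured beside the members, and 0 of them passed. All 11 tested erythroid genes of 13 measured had a negative log2 difference, with a median of -0.31, and 5 lay lower without overlap, beside 48.9% of tested genes negative and 2.27% lower without overlap. Hba-a1 and Hba-a2 of that list are near-identical alpha globin genes with the same log2 difference of -0.30 and the same range of 282 to 602 reads, so they do not count as separate genes. The erythroid genes summed to 42.4 to 76.6 TPM in knockout-labelled cultures, against 66.5 to 113 TPM in wild type. Their sum was lowest in knockout 2 and not in knockout 3, and of the 13 none was at 0 in all libraries. Of 5 tested endothelial genes of 7 measured, 4 were negative, with sums of 8.66 to 11.7 TPM in knockout-labelled cultures and 10.8 to 11.4 TPM in wild type. Basophil and mast cell genes had 2 of 7 negative and sums of 22.8 to 28.5 TPM in knockout-labelled cultures and 17.7 to 28.6 TPM in wild type, and macrophage genes 3 of 12 negative. The part of other cell types in the members' values was not tested.

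Of 10947 other protein-coding genes with a mean of at least 1 TPM, those whose pattern over the 6 libraries was most like that of Itga2b, by Pearson r on log2(TPM + 0.1), were Sdpr (0.985), Fgd3 (0.977), Ache (0.976), Src (0.976) and Adcy6 (0.975), and 70 genes reached 0.9. Ache, the acetylcholinesterase that marks mouse megakaryocytes, had 2.29 ± 0.691 TPM in knockout-labelled cultures, against 2.89 ± 0.642 TPM in wild type (SD, n = 3 each). The genes most like Pf4 were Fkbp1b (0.994), Smyd3 (0.992), Armc10 (0.987), Gstk1 (0.987) and Prkag2 (0.986), and 264 genes reached 0.9. No gene stood in both sets of 5. With 6 libraries and so many genes these are descriptions of likeness.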

How the data were processed

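RNA of 3 cultures labelled knockout and 3 labelled wild type was measured by total RNA sequencing. Tools named by the submitters' processing notes are TopHat2 2.0.12, featureCounts, Subread, edgeR, Picard 1.127 and FastQC 0.11.2, with the build mm10. What each did, how reads were counted and against which annotation is not given in the sources used here. Values deposited per gene and library are in TPM, as their sum of 1000000 shows. Columns of the authors' own comparison hold, per the file headers, log2 values (fold change and mean CPM), the score of a likelihood ratio test, and its p-value before and after adjustment. Table starts count from 0 and are printed counting from 1.

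Whole reads were recovered from ratios of a gene's TPM values for 100% of 94034 values above 0, within 1e-05 of a read; for 427 genes a common factor came from the authors' mean log2 CPM. Counting errors are Poisson and cover counting error only.

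The genotype test used limma 3.58.1 under R 4.3.3 (mean-variance trend, two-sided, Benjamini-Hochberg) on log2(TPM + 0.1), over the 13722 genes that reached 0.1 TPM in 3 or more libraries. The ± after a log2 difference is its SE, after a TPM its SD. The pseudocount and the filter, like the members and lists, were chosen with earlier results of these data known. Nothing in the labels used here ties a library to one animal, so p-values cover the spread between libraries, which the design text calls biological triplicates. The fit and the recovery of reads were tested on simulated data. Symbols of list genes were matched through RefSeq synonyms where needed, and 4 list genes not matched were not analysed. Named list genes are the 2 most abundant and up to 3 with the smallest p of each list, together with partners of members and genes whose groups did not overlap, chosen after their values were seen. Alternatives were other pseudocounts, filters and scaling, limma-voom on reads, a replicate block, the principal component side as a covariate and leaving out libraries.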

Additional observations from a re-analysis of the deposited data

How the results depend on the processing

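The members called stayed at 0 of 8 under all 15 alternatives, and the count of all genes at 0 each way under 14 of them. Without knockout 3 and wild type 3 together, limma called 738 higher and 758 lower genes, and the side of the first component then coincides with genotype. Ppbp, Itga2b, Gp1ba, Gp1bb, Gp9 and Gp6 were lower under all 15 alternatives, and Treml1 under 14, with 0.09 without knockout 3 and wild type 3 together, where Pf4 was 0.21 and below an unadjusted but not an adjusted 0.05. Pf4 turned negative with the side term (-0.09) and without knockout 1 (-0.06), knockout 2 (-0.09) or wild type 2 (-0.01). Over the single left-out libraries the log2 difference ranged from -0.09 to 0.19 for Pf4, from -0.58 to -0.30 for Gp1ba and from -0.37 to -0.02 for Treml1; Pf4 against the lineage-restricted genes ranged from 0.24 to 0.45, and the calls were 0. The median-of-ratios scaling moved the median of all genes to 0.006. The replicate block called 0 members and 0 genes each way, with a Pf4 difference of 0.01. Same-numbered libraries did not deviate together (correlations across genes of -0.24, -0.15 and -0.53). The first component, with knockout 3 and wild type 3 on opposite sides, enters these correlations. They therefore cannot decide whether the numbers pair the libraries. Gp1bb, Gp9 and Gp6, with 53 to 164 reads per library, are the members that depth limits most.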

Other observations

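Ly6a, which encodes the stem cell antigen Sca-1 and belongs to the progenitor list, had 9.84, 16.8 and 78.2 TPM in knockout-labelled cultures, against 10.0, 5.90 and 8.33 TPM in wild type. Knockout 3, in which all 8 members were lowest, held the highest Ly6a level. Other genes of the progenitor list were divided in that library. Slamf1 had its lowest value there, at 0.92 TPM, and Kit its highest, at 3.68 TPM against 3.65 TPM in wild type 1. Cd34, another progenitor gene, had 3.00, 2.74 and 2.97 TPM in knockout-labelled cultures, against 4.54, 6.54 and 3.09 TPM in wild type. Its groups did not overlap, where 2.27% of tested genes lay lower in that way. The gap of Cd34 was narrow, with 3.00 TPM in knockout 1 and 3.09 TPM in wild type 3. Its log2 difference of -0.62 ± 0.27 (SE) did not pass the limma test over all genes. Of 5 tested progenitor genes 3 had a negative log2 difference, with a median of -0.05, and none passed.

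The endothelial gene Emcn had 0.809, 0.474 and 0.508 TPM in knockout-labelled cultures, against 0.646, 1.61 and 1.60 TPM in wild type. The matrix gene Sparc had 0.934, 0.732 and 0.718 TPM in knockout-labelled cultures, against 0.948, 2.03 and 2.54 TPM in wild type. Both were high in wild type 2 and 3 and low in wild type 1. The lineage-restricted platelet genes differed, with their lowest wild-type value in wild type 2. The other tested endothelial genes did not share the pattern of Emcn. In wild type 1, 2 and 3, Kdr had 3.49, 3.49 and 2.47 TPM and Pecam1 had 4.86, 4.21 and 5.08 TPM. Cdh5 had 1.01, 1.51 and 0.946 TPM there, and Tie1 had 0.511, 0.514 and 0.783 TPM.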
